A study of Mus musculus with 2 samples.

Results

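CD41-high megakaryocytes are the cells of mouse fetal liver that carried both platelet-type transcripts and the CD41 antibody. They were chosen as cells with 2 or more UMIs (unique molecular identifiers, each standing for 1 captured mRNA) of at least 3 of the genes *Pf4*, *Ppbp*, *Gp1bb*, *Itgb3*, *Plek* and *Thbs1*, and with a CD41 antibody count of 96 or more. Of 7355 cells within the quality limits, 93 met this rule, a share of 1.26% (exact binomial 95% interval 1.02 to 1.55%). The cells came from livers of C57BL/6 embryos at e13.5, pooled and partly depleted of cells with the late erythroid antigen Ter119. The experiment was CITE-seq, in which 1 cDNA library gives the transcripts of each cell and 1 antibody library gives counts of 9 barcoded antibodies and a control IgG. All 7863 deposited cell barcodes were present in both libraries. No genotype, drug or time point was compared, and the contrasts here are between groups of cells of the same pool.

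There is 1 library of each kind and no replicate, so no test between groups could be made and no p-value is given. Cells of 1 library are not replicates. Each cell's UMIs of a gene were scaled to a total of 1000000 (CPM), a level is the mean CPM of a group, and 95% intervals cover counting error only. The members had between 2570 and 23900 UMIs with a median of 9254, and a median of 2970 genes. Their summed depth was 932125 UMIs. The labels name the material as erythroid progenitors of the fetal liver, so the lineage of these 93 cells rests on the rule and the markers below and not on a label.

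Megakaryocytes are the large polyploid blood cells that shed platelets, and they arise from the same early progenitors as red cells. Thrombopoietin drives their growth, and GATA1 with its partner FOG1, RUNX1, FLI1 and NF-E2 control their genes. As they mature they replicate DNA without dividing, build alpha and dense granules, and place adhesion receptors on an extensive membrane system. The integrin αIIbβ3, whose αIIb chain is the antigen CD41, binds fibrinogen when platelets aggregate. In the midgestation embryo the fetal liver is a main site of their production.

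The antibody barcodes and the promoters below are shown because the first define the protein readout and the second belong to the antigen gene and to the most abundant platelet transcript. Each barcode of 12 bases was fused to 1 antibody and differs from every other barcode of the panel by at least 4 bases.
CD41: tgtccggcaata
cKit: aagcgcttggca
control IgG: cggagtagtaat
Those of CD41 and cKit differ from their nearest neighbours in the panel by 7 and 6 bases. The control IgG had a median of 0 counts in the members and at most 2.

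*Itga2b*, which encodes CD41, lies on chromosome 11 from 102453297 to 102469883 (GRCm38, the same assembly as the mm10 build of the counts), and *Pf4*, which encodes platelet factor 4, lies on chromosome 5 from 90772435 to 90773383. The 250 bases before each start are printed from RefSeq (GRCm38.p6), 5′ to 3′ on the strand of the gene, with ETS-type letters in capitals, since FLI1 belongs to the ETS family. The *Itga2b* stretch is chr11:102469884-102470133 on the minus strand and that of *Pf4* is chr5:90772185-90772434 on the plus strand.
Itga2b: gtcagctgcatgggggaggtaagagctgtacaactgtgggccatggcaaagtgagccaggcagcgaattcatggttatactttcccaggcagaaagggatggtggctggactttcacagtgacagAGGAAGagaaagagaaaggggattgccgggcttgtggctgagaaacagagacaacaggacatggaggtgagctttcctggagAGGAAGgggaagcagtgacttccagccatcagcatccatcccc
Pf4: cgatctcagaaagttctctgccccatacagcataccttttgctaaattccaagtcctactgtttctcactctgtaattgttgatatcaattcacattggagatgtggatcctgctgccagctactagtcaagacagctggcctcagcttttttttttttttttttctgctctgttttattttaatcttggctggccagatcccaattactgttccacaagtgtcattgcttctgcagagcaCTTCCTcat
The letters AGGAAG or CGGAAG, read on both strands, occurred at 125 to 120 and at 43 to 38 bases before the start of *Itga2b* and at 9 to 4 bases before that of *Pf4*. Among the rule genes and the listed platelet receptors, 27 of 34 had a promoter in the table, and 13 of these 27 (48.1%) held ETS letters, against 42.5% of 27025 genes. GATA letters (AGATAA or TGATAA, both strands) were in 25.9% against 18.8%, and the NF-E2 letters TGAGTCA, both strands, in 3 of 27 (11.1%) against 5.2%. These are matches of letters in a window of 250 bases and not binding sites.

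The 6 genes of the rule are described first, with no test, because they chose the members. *Pf4*, a chemokine stored in alpha granules, had a mean of 18002 CPM (95% interval 17690 to 18321), a median of 14076 and a highest value of 60888 CPM, and it was at 0 in the lowest cell. *Ppbp*, the other platelet chemokine, had a mean of 5019 but a median of only 97.6 CPM, and 48 of 93 cells had any UMI. *Thbs1*, the adhesive glycoprotein thrombospondin, had a mean of 1892 and a median of 987 CPM. *Gp1bb*, a chain of the von Willebrand factor receptor, had a mean of 1325 CPM, *Plek*, the kinase C substrate pleckstrin, 1115 CPM, and *Itgb3*, the integrin β3 chain, 829 CPM. *Plek* and *Gp1bb* were thus present in most members, with a UMI in 92 and 90 cells, whereas *Ppbp* divided them.

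The members met the rule to different degrees. All 6 genes reached 2 UMIs in 37 members, 5 genes in 22, 4 genes in 17 and exactly 3 genes in 17. The gene that most often reached 2 UMIs was *Pf4* or *Plek* (89 members each), followed by *Gp1bb* (83), *Thbs1* (79), *Itgb3* (68) and *Ppbp* (43). The CD41 counts were 98 in the lowest member, 1639 at the median and 28778 in the highest. Just inside the limit stood counts of 98, 110, 119, 131 and 151, and the only cells that met the gene rule below the limit had 74 and 21. With 2 such cells, no comparison of CD41-high with CD41-low cells was made.

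Most markers outside the 6 genes of the rule were present, with 1 exception. Of the 10 megakaryocyte markers in the list, *Gp9*, *Gp5*, *Gp1ba*, *Itga2b* and *Vwf* were all detected, and none of these 5 entered the gene rule. The protein of *Itga2b*, however, was part of the choice through the CD41 antibody. *Tubb1*, the platelet-specific β-tubulin of the marginal band, had 3 UMIs in 3 cells and a mean of 3.28 CPM (95% interval 0.653 to 18.8). It was listed at 0 in the cKit-high and Ter119-high cells defined below.

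Members were set beside 2 populations of the same library. The first, called cKit-high progenitors, was 1288 cells that failed the gene rule, had cKit counts of 100 or more, CD41 under 96, CD71 under 200 and Ter119 under 25. The second was all 7260 kept cells that failed the gene rule, in which *Hbb-bs*, an adult β-globin gene, averaged 93299 CPM. A gene was counted as higher or lower when the means plus 10 CPM differed at least 2-fold and the 2 groups together held 50 UMIs of it. Some genes met this minimum almost wholly through the members, such as *Alox12* (376 UMIs against 3 in the cKit-high progenitors), and were then counted as higher. Counts over the lists below are thus partly set by this filter, and sums over all listed genes are not. Against the cKit-high progenitors 9077 genes were compared, of which 635 (7.00%) were higher and 470 (5.18%) lower in the members, with a median log2 difference of −0.12. The balance of this split depended on the settings, with 426 higher and 686 lower when each cell was thinned at random to 2000 UMIs (medians of 20 draws) and 956 and 1271 when 1 CPM was added in place of 10. Against the cells failing the rule 11275 genes were compared, of which 1100 (9.76%) were higher and 406 (3.60%) lower, with a median of 0.11. These counts describe this library and are not counts of tested genes.

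**Figure D1:**
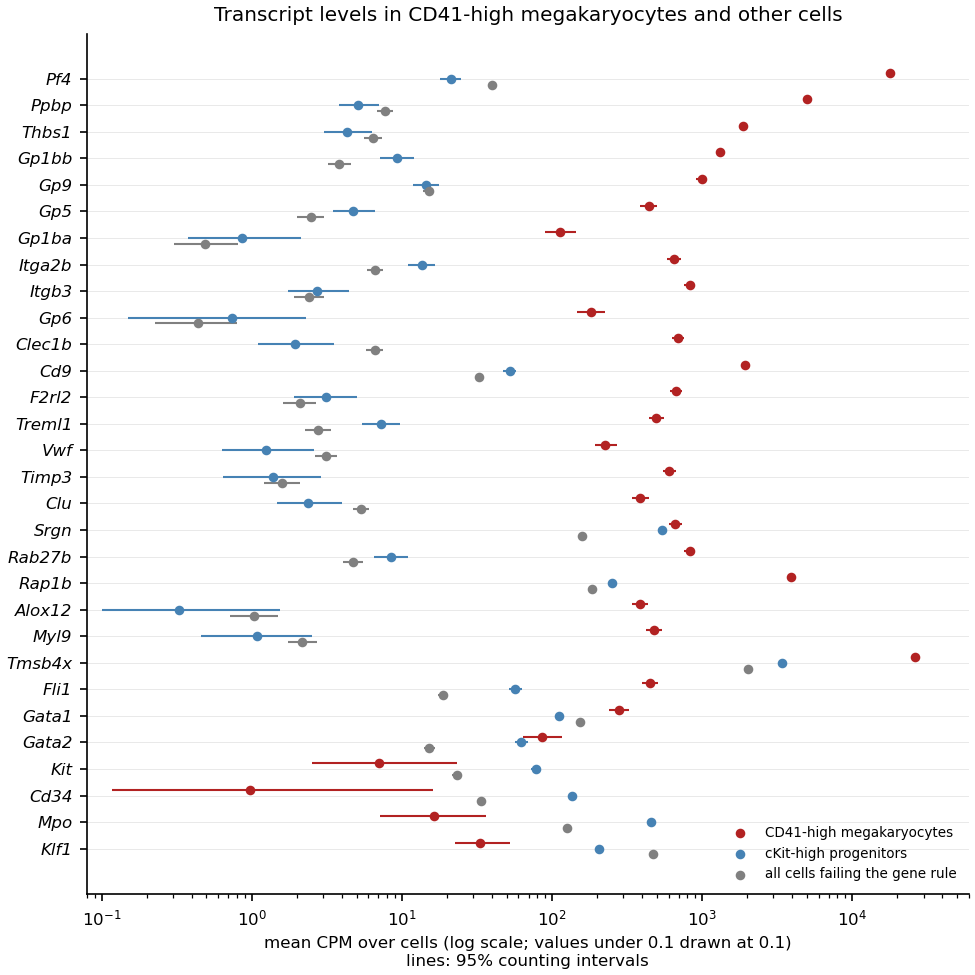
Mean CPM over cells (log axis) with 95% counting intervals for 30 genes in CD41-high megakaryocytes (93 cells), cKit-high progenitors (1288 cells) and all cells failing the gene rule (7260 cells). Platelet genes such as *Gp9* (995 against 14.5 CPM in cKit-high progenitors) lie to the right in the megakaryocytes, *Srgn* and *Gata2* lie close to the progenitors, and *Kit*, *Cd34*, *Mpo* and *Klf1* lie to the left.

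The receptor for von Willebrand factor, the GPIb-IX-V complex, captures platelets at damaged vessel walls under flow. All 4 of its genes were past 2-fold higher than in both other populations, *Gp1bb* among them as a gene of the rule. Over all compared genes the shares higher were 7.00% and 9.76%. *Gp9* had a lowest value of 0, a median of 427 and a highest of 9874 CPM over the members, with a mean of 995 CPM (95% interval 917 to 1081) against 14.5 CPM in the cKit-high progenitors, a ratio of 68.6 (55.7 to 85.2). *Gp5* had a mean of 442 against 4.74 CPM, a ratio of 93.2 (67.6 to 131). *Gp1ba*, the ligand-binding chain, was the least counted of the 4, with a mean of 114 against 0.859 CPM and a UMI in 37 of 93 members. The genes of the complex were therefore unequal in counts, although 3′ tag counts of different genes are not scaled to a common standard.

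Other adhesion and agonist receptors were likewise higher. Of 25 listed genes, 20 could be compared with the cKit-high progenitors. Of these 19 were higher, beside 7.00% of all compared genes, with a median log2 difference of 3.2. Summed over all 25 genes, the list stood at 6804 against 316 CPM. The exception was *Jam3*, a junctional adhesion molecule, at 16.7 against 8.21 CPM, which is within 2-fold once 10 CPM are added. *Itga2b* had a lowest value of 0, a median of 356 and a highest of 5788 CPM, with a mean of 652 CPM (589 to 723) against 13.6 CPM, a ratio of 48.1 (38.7 to 60.2). Its protein is CD41, and CD41 counts helped to choose both groups, so this ratio is partly set by the choice. *Clec1b*, the podoplanin receptor CLEC-2, had 697 against 1.96 CPM, and *Gp6*, the collagen receptor, 183 against 0.744 CPM, the latter from 3 UMIs in the progenitors (ratio 245, 80.7 to 1231). *Cd9*, a tetraspanin, was the most counted receptor gene at 1940 against 52.3 CPM.

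Thrombin receptors were present in 3 forms. *F2rl2*, which encodes PAR3, had a mean of 672 CPM with a median of 504, *F2r*, which encodes PAR1, 583 CPM, and *F2rl3*, which encodes PAR4, 105 CPM. Against the cKit-high progenitors the ratio was 216 for *F2rl2*, 15.6 for *F2r* and 26.9 for *F2rl3*. The ADP and ATP receptors followed, with *P2rx1* at 203, *P2ry1* at 121 and *P2ry12* at 36.5 CPM. *P2ry12*, the target of common antiplatelet drugs, was seen in 12 cells. *Cd36*, a thrombospondin receptor, was listed at 0 in all 93 members, and *Itga2*, the collagen-binding integrin chain, had 1 UMI.

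Alpha granule genes divided into those with large and those with small differences. Of 22 listed genes 16 could be compared with the cKit-high progenitors. Of these 11 were higher, beside 7.00% of all compared genes, with a median log2 difference of 2.08. Summed over all 22 genes, the list stood at 3313 against 832 CPM. *Vwf*, the adhesive ligand of the receptor above, had a lowest value of 0, a median of 143 and a highest of 982 CPM, with a mean of 227 (193 to 270) against 1.24 CPM. *Timp3*, an inhibitor of matrix proteases, had 607 against 1.38 CPM, *Clu*, an extracellular chaperone, 388 against 2.37 CPM, and *Mmrn1*, which binds factor V, 155 against 5.87 CPM. *Srgn*, the granule proteoglycan of several blood lineages, stood at 663 against 543 CPM, a ratio of 1.22 (1.10 to 1.35) and within 2-fold. *Selp*, the P-selectin of the granule membrane, had 11 UMIs, and *F13a1*, a coagulation factor chain, 31.1 against 23.0 CPM.

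Growth factors that granules release were few. *Tgfb1* had a mean of 554 against 180 CPM, *Angpt1* 73.9 against 20.1 CPM and *Pdgfb* 51.0 against 1.06 CPM. These were the 3 higher genes among 6 of the 20 listed secreted factors that could be compared, beside 7.00% of all compared genes. *Thpo*, the thrombopoietin gene, was listed at 0 in the members, as were *Fgf1*, *Fgf2*, *Pdgfc* and *Il6*.

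Dense granule and secretion genes showed fewer differences. Of 22 listed genes 19 could be compared with the cKit-high progenitors. Of these 7 were higher and none lower, beside 7.00% and 5.18% of all compared genes. The median log2 difference was 0.72, against −0.12 for all genes. Summed over all 22 genes, the list stood at 2374 against 1035 CPM. *Rab27b*, a small GTPase that acts in dense granule formation and release, had a lowest value of 0, a median of 811 and a highest of 2795 CPM and a mean of 829 against 8.50 CPM, a ratio of 97.6 (75.2 to 129). *Slc35d3*, needed for dense granules, had 165 against 5.52 CPM, and *Stx11*, a syntaxin of the release machinery, 211 against 12.5 CPM. *Vamp8*, a vesicle SNARE used in platelet release, stood at 339 against 473 CPM. The genes of the Hermansky-Pudlak complexes that could be counted (*Hps1*, *Hps3*, *Hps4*, *Hps5*, *Hps6*) lay between 0.450 and 37.9 CPM.

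Genes listed for integrin activation and platelet signalling were nearly all higher. Of 32 genes 31 could be compared with the cKit-high progenitors. Of these 28 were higher, beside 7.00% of all compared genes, with a median log2 difference of 2.57. Summed over all 32 genes, the list stood at 13706 against 1631 CPM. *Rap1b*, the GTPase that activates αIIbβ3, was found in every member, from 510 to 8560 CPM with a median of 3910, and had a mean of 3899 against 252 CPM, a ratio of 15.5 (14.6 to 16.5). Its exchange factor gene *Rasgrp2* stood at 1073 against 104 CPM, *Fermt3* (kindlin-3) at 558 against 79.5 CPM, and *Tln1* (talin) at 499 against 81.0 CPM. *Lat*, the adaptor below GPVI and CLEC-2, had 710 against 21.8 CPM. *Alox12*, the platelet lipoxygenase, had 387 against 0.327 CPM, the latter from 3 UMIs, and a median of 0 over the members, since 45 of 93 cells held it.

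The cytoskeleton took a large share of the transcripts. Of 36 listed genes 33 could be compared with the cKit-high progenitors. Of these 26 were higher, beside 7.00% of all compared genes, with a median log2 difference of 2.18. Summed, the list reached 64946 CPM against 17757 CPM. *Tmsb4x*, which encodes the actin-sequestering thymosin β4, was the most counted transcript of the members, from 2617 to 89889 CPM with a median of 24514, and had a mean of 26232 against 3442 CPM, a ratio of 7.62 (7.48 to 7.77). *Tpm4*, a tropomyosin needed for platelet production, had 1347 against 53.6 CPM, *Myl9*, the myosin light chain, 480 against 1.08 CPM, and *Myh9*, the platelet myosin heavy chain, 196 against 28.3 CPM. *Myl9* was held by 35 members only, with a median of 0. *Tubb5*, a tubulin of dividing cells, stood at 1227 against 1739 CPM, and *Tuba8* at 91.4 against 7.29 CPM.

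Among the 10 genes with the highest means were also *Pf4*, *Actb* at 14901 CPM, *Pfn1* at 5540 CPM, *Rpl13*, the mitochondrial transcripts *mt-Atp6*, *mt-Co3*, *mt-Nd1* and *mt-Co1*, and the nuclear RNA *Malat1*. The mean of *Actb* was far above its median of 4566 CPM. *Malat1* reached 170817 CPM in 1 member against a median of 3707 CPM, and it is retained in nuclei.

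Transcription factors of the lineage were mostly higher, by smaller ratios than the receptors. Of 21 listed factors 20 could be compared with the cKit-high progenitors. Of these 11 were higher and 1 lower, beside 7.00% and 5.18% of all compared genes, with a median log2 difference of 1.11. Summed over all 21 factors, the list stood at 3757 against 1666 CPM. *Fli1* had a median of 370 and a mean of 450 CPM (398 to 509) against 57.1 CPM, a ratio of 7.88 (6.73 to 9.22). *Mef2c*, a MADS box factor gene, had 445 against 103 CPM and *Meis1* 159 against 27.3 CPM. *Gata1*, shared with red cells, had 281 CPM (241 to 328) against 112 CPM, *Nfe2* 255 against 73.2 CPM, *Runx1* 176 against 66.5 CPM and *Zfpm1*, which encodes FOG1, 151 against 62.7 CPM. The Ter119-high erythroid cells (1636 cells that failed the gene rule, with Ter119 of 100 or more and CD41 under 96) had 115 CPM of *Gata1* and 165 CPM of *Nfe2*, but 5.66 CPM of *Fli1*.

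*Gata2*, a factor of progenitors, stood at 86.1 CPM (64.1 to 117) against 62.5 CPM in the cKit-high progenitors, a ratio of 1.38 (1.01 to 1.85) whose lower bound is near 1. When every cell was thinned at random to 2000 UMIs, the ratio ran from 0.489 to 1.70 over 20 draws and was below 1 in 2 of them. *Ikzf1*, which encodes Ikaros, was the lower gene of the list, at 5.34 against 116 CPM. *Erg*, an ETS gene, was listed at 0 in the members and at 5.33 CPM in the progenitors. *Cbfb*, the partner of RUNX1, had 59.3 against 82.0 CPM.

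Factors of other lineages were lower or within 2-fold. Of 11 listed genes 10 could be compared with the cKit-high progenitors. Of these 7 were lower and none higher, beside 5.18% and 7.00% of all compared genes, with a median log2 difference of −1.68. Summed over all 11 genes, the list stood at 109 against 732 CPM. *Myb*, which in mice limits megakaryocyte output, had 11.8 against 185 CPM, *Klf1*, the erythroid factor, 33.1 against 207 CPM, and *Spi1*, the myeloid factor PU.1, 20.7 against 132 CPM. *Cebpa*, *Gfi1*, *Hlf* and *Mecom* had no UMI in the members, although a count of 0 cannot show absence at this depth.

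Against all cells that failed the rule, the genes lower by the widest margins in the members were those of haemoglobin and the red cell membrane. Of 10 globin genes 8 were lower, with a median log2 difference of −4.33, and all 8 erythroid markers were lower, with a median of −3.32. Over all genes of this comparison 3.60% were lower, with a median of 0.11. *Hbb-bs* had 4456 against 93299 CPM and *Hbb-y*, an embryonic one, 151 against 6771 CPM. *Alas2*, the erythroid enzyme that starts haem synthesis, had 24.4 against 712 CPM. Since a large share of the UMIs of these cells was globin, leaving globin out of the denominator changed the counts from 1100 higher and 406 lower to 924 and 633.

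Cytokine receptor and signalling genes differed in both directions. *Kit*, the receptor for stem cell factor, had 7.08 CPM (2.51 to 23.3) against 78.3 CPM, a ratio of 0.0903 (0.0319 to 0.202), with a UMI in 6 members. *Epor*, the erythropoietin receptor, stood at 57.5 against 60.5 CPM, and *Jak2*, a kinase of cytokine receptor signalling, at 75.3 against 22.1 CPM. Over the list of 19 genes, 16 could be compared, with 3 higher, 3 lower and a median log2 difference of −0.02. Over all genes compared, 7.00% were higher and 5.18% lower, and the median was −0.12, close to that of the list. *Bcl2l1*, which encodes BCL-XL and sets platelet lifespan, had 114 against 16 CPM and was the 1 higher gene of 9 compared in the apoptosis list, a count near the 7.00% of all genes. The Ter119-high cells had 300 CPM of it.

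Shares of cells with a UMI were compared at 2000 UMIs per cell, beside the Ter119-high cells, an erythroid population that was itself chosen to fail the gene rule and the CD41 limit. Thinning is random, so the median of 20 draws is given with its range. *Itga2b* was seen in 54.3% of members (46.2 to 62.4%) and in 0.611% of Ter119-high cells (0.367 to 0.856%). *Gp9* was seen in 60.2% and 1.99%, *Fli1* in 54.8% and 1.07%, and *Gata1* in 38.2% and 18.5%. In a single draw the exact binomial 95% interval of the *Itga2b* share was 49.5 to 70.2%, around 60.2%. Without thinning, the shares for *Itga2b* were 87.1% and 1.59%, at median depths of 9254 and 4311 UMIs. *Kit* was seen in 1.08% (0 to 3.23%) of members and 0.55% of Ter119-high cells, and *Tubb1* in 0.538% (0 to 2.15%) of members and none of 1636 Ter119-high cells, for which the exact binomial upper limit is 0.225%. *Pf4* itself was seen in 93.5% of members and 9.29% of Ter119-high cells, and in a single draw in 4.5% of cKit-high progenitors. The source of these UMIs was not tested. When cells were taken by Ter119 of 100 or more alone, a choice added after the data had been seen, 47 cells with CD41 of 96 or more joined, 1 of them a member. Over these 1683 cells the median shares were 0.772% for *Itga2b*, 2.08% for *Gp9*, 1.43% for *Fli1* and 9.39% for *Pf4*.

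**Figure D2:**
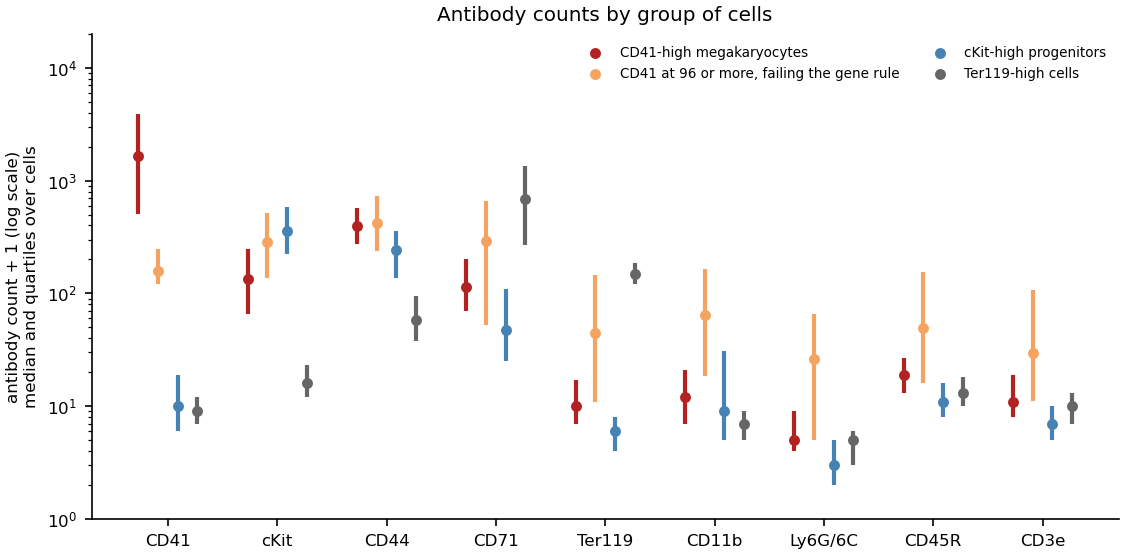
Antibody counts plus 1 (log axis) as medians (points) and quartiles (lines) over cells for CD41-high megakaryocytes, cells with CD41 of 96 or more that fail the gene rule, cKit-high progenitors and Ter119-high cells. CD41 was selected in all 4 groups, at 96 or more in the first 2 and under 96 in the others. The megakaryocytes have a cKit median of 132 and a CD44 median of 391, and the second group stands out in CD11b (64), CD45R (48.5) and CD3e (28.5).

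On the surface the members carried cKit that their transcripts hardly showed. The cKit antibody ranged from 4 to 810 counts with a median of 132, between the median of 359 in the cKit-high progenitors, which were selected on it, and 15 in the Ter119-high cells. CD44, an adhesion receptor for hyaluronan, had a median of 391 against 240 in the progenitors and 57 in the Ter119-high cells, and its transcript *Cd44* had 35.5 against 71.2 CPM. Antibodies to leukocyte antigens also had higher medians, 18 against 10 for CD45R, 10 against 6 for CD3e and 4 against 2 for Ly6G/6C. CD11b differed less, with medians of 11 against 8 and a lower upper quartile in the members (20 against 30). The CD44 difference in medians lies within the range of these antibodies. CD71, the transferrin receptor, had a median of 113 against 46, and its transcript *Tfrc* 39.4 against 70.5 CPM, the antibody being capped at 200 in the progenitors by selection. Ter119 had a median of 9, with 14 members at 25 or more and 1 at 100 or more. Transcripts of the leukocyte antigens were nearly lacking, *Ptprc* with 4 UMIs and *Itgam* with none, beside a CD11b median of 11.

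**Figure D3:**
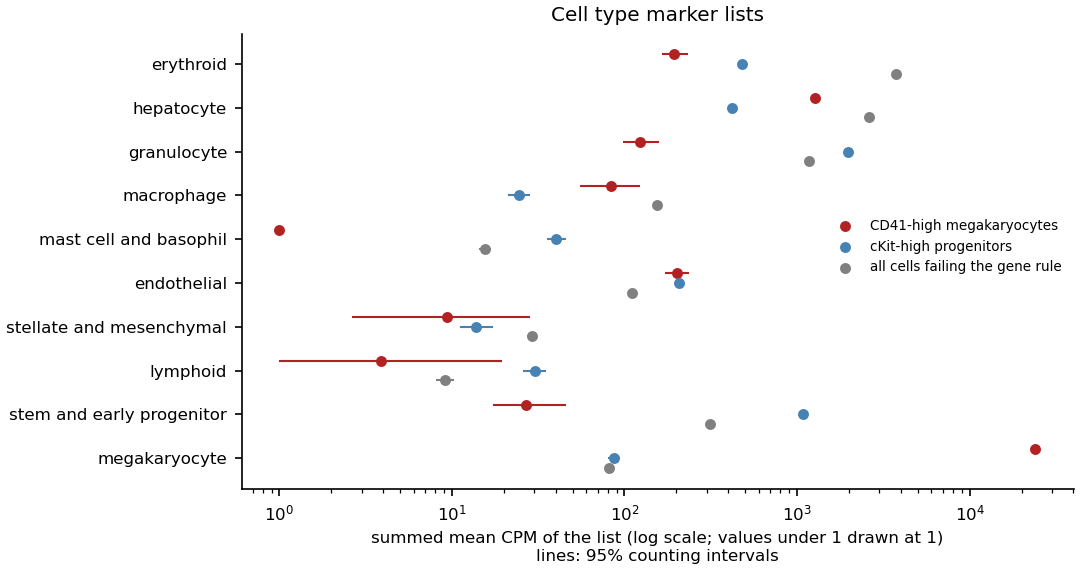
Summed mean CPM (log axis) of marker lists for 10 cell types with 95% counting intervals, in CD41-high megakaryocytes, cKit-high progenitors and all cells failing the gene rule. The megakaryocyte list, which holds 3 genes of the rule, reaches 23872 CPM in the members against 87.2 CPM in the progenitors, and the granulocyte, stem cell and mast cell lists are lower in the members.

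Markers of other cells were summed to describe what else the selected barcodes held. Erythroid markers reached 194 CPM (164 to 232) in the members, 481 CPM in the cKit-high progenitors, and none of the 8 was at 0. Globin transcripts made up a median of 0.807% of UMIs, and their summed level of 8477 CPM was close to the 8428 CPM of the cKit-high progenitors and far below the Ter119-high cells, where *Hbb-bs* alone had 270570 CPM. Granulocyte markers stood at 123 against 1970 CPM, all 8 lower, beside 5.18% of all compared genes, with *Mpo* at 16.3 against 460 CPM. The stem and early progenitor list stood at 26.9 against 1087 CPM, with *Hlf*, *Mecom*, *Flt3* and *Ly6a* at 0 and *Cd34* at 0.975 against 137 CPM. All 8 mast cell and basophil genes were at 0.

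Hepatocyte and macrophage markers had higher sums in the members than in the cKit-high progenitors, but lower sums than in all cells failing the rule, which had 2630 and 154 CPM. Hepatocyte markers stood at 1271 CPM against 418 CPM in the progenitors, with 5 of 8 genes higher, beside 7.00% of all compared genes. *Afp*, the most counted, had 484 against 154 CPM. The hepatocyte sum rested on few cells: its median over members was 224 CPM against 206 CPM in the progenitors, 1 member reached 49177 CPM, and a single cell held 47.0% of the *Afp* UMIs and 42.9% of the *Alb* UMIs. Macrophage markers summed to 83.7 CPM (55.4 to 123) from 32 UMIs against 24.5 CPM (21.2 to 28.5) in the progenitors, with a median of 0 over the members, 83.3% of the *C1qb* UMIs in 1 cell and *Csf1r* and *Adgre1* at 0. Endothelial markers summed to 201 against 208 CPM, mostly *Egfl7* at 128 CPM, with *Emcn* at 0. *Kdr*, the VEGF receptor, was 1 of these that stood higher, at 30.6 against 1.76 CPM, held by 24 members. Lymphoid genes summed to 3.90 CPM from 4 UMIs and stellate cell genes to 9.39 CPM from 7 UMIs. Doublet calling marked 4 of the 93 members (4.3%), against 1.51% of all kept cells and 0.543% of the cKit-high progenitors, and 2 to 4 members with 5 further random seeds. The part of any admixed RNA in the levels above was not tested.

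The CD41 antibody count varied widely within the members, so they were cut into 3 tiers of 31 cells by that count, a comparison added after the data had been seen. The lowest tier had counts of 98 to 639, the middle tier 662 to 3119 and the highest tier 3141 to 28778. The question was how transcripts and the other antibodies vary as the antigen increases. Between the highest and the lowest tier 2190 genes held enough UMIs to compare, of which 312 (14.2%) were higher and 283 (12.9%) lower in the highest tier, with a median log2 difference of −0.21. At a common depth of 2000 UMIs per cell the 595 genes past 2-fold became 133, since fewer genes then held 50 UMIs. All 4 members called doublets fell in the lowest tier, and without called doublets 296 genes were higher and 276 lower. Median depth was 8865 UMIs in the lowest tier, 8636 in the middle and 12990 in the highest.

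**Figure D4:**
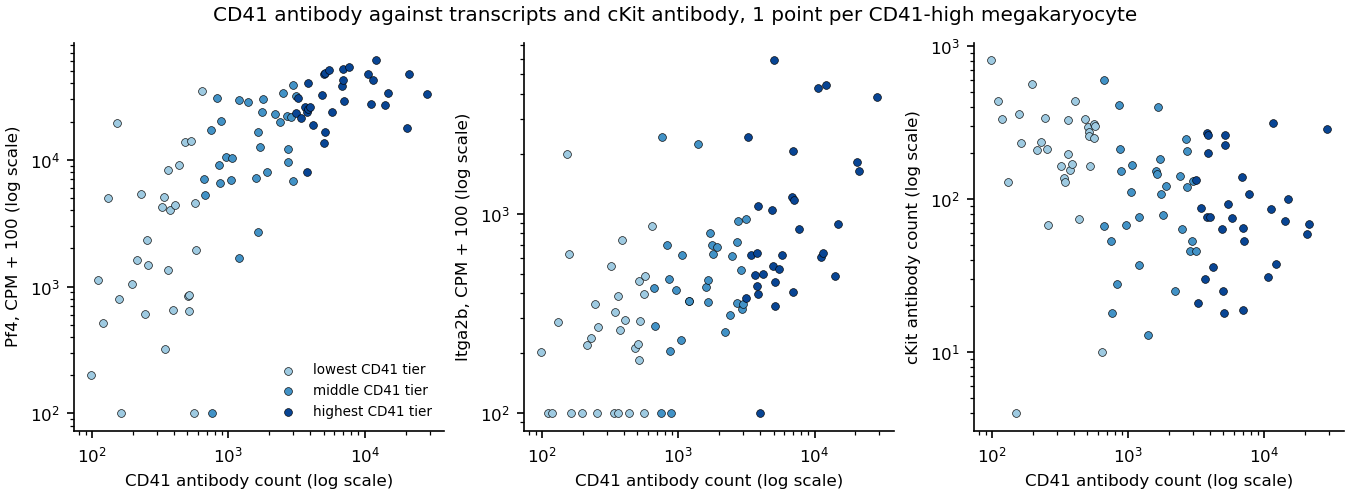
Each point is 1 CD41-high megakaryocyte, with its CD41 antibody count (log axis) against *Pf4* CPM plus 100, *Itga2b* CPM plus 100 and the cKit antibody count (log axes), coloured by tiers of CD41. *Pf4* and *Itga2b* are higher at higher CD41 (Spearman rho 0.80 and 0.60 over 93 cells), and cKit is lower (−0.42), where CD41 and *Pf4* were both used to choose the cells.

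*Pf4*, a gene of the rule, went from 4705 CPM in the lowest tier through 16161 to 33139 CPM in the highest, a ratio of 7.04 that was 3.93 when 4 of the 6 genes were required. *Itga2b* had 247, 492 and 1218 CPM in the same order, and the ratio of highest to lowest was 4.92 (3.47 to 7.17). The antibody medians, which the cut itself set apart, were 343, 1639 and 5442 counts. Of the GPIb-IX-V complex, the 3 genes outside the rule were higher in the highest tier, beside 14.2% of all compared genes. *Gp9* had 227, 661 and 2096 CPM (ratio 9.23, 6.77 to 12.9), *Gp5* 151, 296 and 879 CPM (5.83, 3.77 to 9.43) and *Gp1ba* 16, 46.5 and 280 CPM (17.5, 5.90 to 81.8), the last from 4 UMIs in the lowest tier. When CD41 was instead taken relative to the CD11b, Ly6G/6C, CD45R and CD3e antibodies, the ratios were 3.33 for *Itga2b*, 3.83 for *Gp9*, 3.69 for *Gp5* and 5.09 for *Gp1ba*. With 2 tiers in place of 3 they were 2.88, 3.87, 3.03 and 6.4. The lowest *Gp1ba* ratio in any setting tried was 2.33.

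Most platelet lists were ordered in the same way. Among receptors 14 of 15 comparable genes were higher in the highest tier (median log2 difference 2.3), and among alpha granule genes 8 of 9 (1.82). Over all compared genes 14.2% were higher and 12.9% lower (−0.21). Among signalling genes 17 of 24 were higher (1.35) and among cytoskeletal genes 20 of 29 (1.83), and none of these lists had a lower gene. These lists held 25, 22, 32 and 36 genes in that order, and the rest had too few UMIs. Some compared genes met the minimum almost wholly through the highest tier, such as *Myl9* (360 UMIs against 3 in the lowest). The counts are thus partly set by the filter, and sums over all listed genes are not. In the lowest and highest tier the sums were 2920 and 12726, 1708 and 5467, 8285 and 19933, and 36176 and 94907 CPM. Dense granule genes differed less, with sums over the list of 1720 CPM in the lowest and 3136 CPM in the highest tier. Only 7 of them could be compared, of which 2 were higher, *Rab27b* and *Stx11*, with a median of 0.46. So few genes do not set the list apart from the 14.2% of all compared genes. *Clec1b* had 150, 446 and 1495 CPM, *Vwf* 74.9, 229 and 379 CPM, and *Tmsb4x* 12795, 26730 and 39169 CPM. On the relative scale of CD41 the ratio of highest to lowest was 3.56 in place of 9.99 for *Clec1b* and 3.56 in place of 5.05 for *Vwf*, and with 2 tiers it was 3.05 for *Vwf*. *Myl9* had 37.2, 143 and 1261 CPM and *Alox12* 24.0, 252 and 886 CPM, each from 3 UMIs in the lowest tier, and on the relative scale of CD41 their ratios were 9.54 and 4.58 in place of 33.9 and 36.9. *Vamp8* stood at 395, 271 and 351 CPM, *F2r* at 532, 525 and 691 CPM, and *Rap1b* at 2979, 3986 and 4733 CPM. The last 3 genes were within 2-fold.

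The largest differences towards the highest tier, in order, were those of *Myl9*, *Alox12*, *Igtp*, *Gsn*, *Tsc22d1*, *Hist1h1c*, *Tpm2*, *Ctla2a*, *Neat1*, *Hacd4*, *Atp2c1* and *Gp1ba*. Some met the UMI minimum almost wholly through the highest tier, such as *Igtp* (59 UMIs against 0 in the lowest), *Tpm2* (136 against 3) and *Neat1* (75 against 2). The exact order of such genes rests on few UMIs, while *Tsc22d1* had 28 and *Ctla2a* 32 UMIs in the lowest tier. *Tsc22d1*, a leucine zipper protein gene, had 137, 538 and 2903 CPM, with a median of 445 CPM in the highest tier. *Ctla2a*, a protease inhibitor gene, had 160, 492 and 2576 CPM. *Igtp*, an interferon-inducible GTPase gene, had no UMI in the lowest tier and 215 CPM in the highest, where 13 of 31 cells held it. For *Hist1h1c*, a linker histone gene, 45.3% of the UMIs of the highest tier came from 1 cell. *Neat1*, a nuclear RNA like *Malat1*, had 11.2, 54.2 and 282 CPM, and *Gsn*, which encodes the actin-severing protein gelsolin, 5.56, 22.2 and 299 CPM, the first from 2 UMIs. On the relative scale of CD41 the ratios of highest to lowest were smaller, 9.65 in place of 21.2 for *Tsc22d1*, 5.26 in place of 16.1 for *Ctla2a*, 3.32 in place of 20.4 for *Hist1h1c* and 7.39 in place of 53.7 for *Gsn*. The lowest ratios in any setting tried were 5.6 for *Tsc22d1* and 4.85 for *Ctla2a*.

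**Figure D5:**
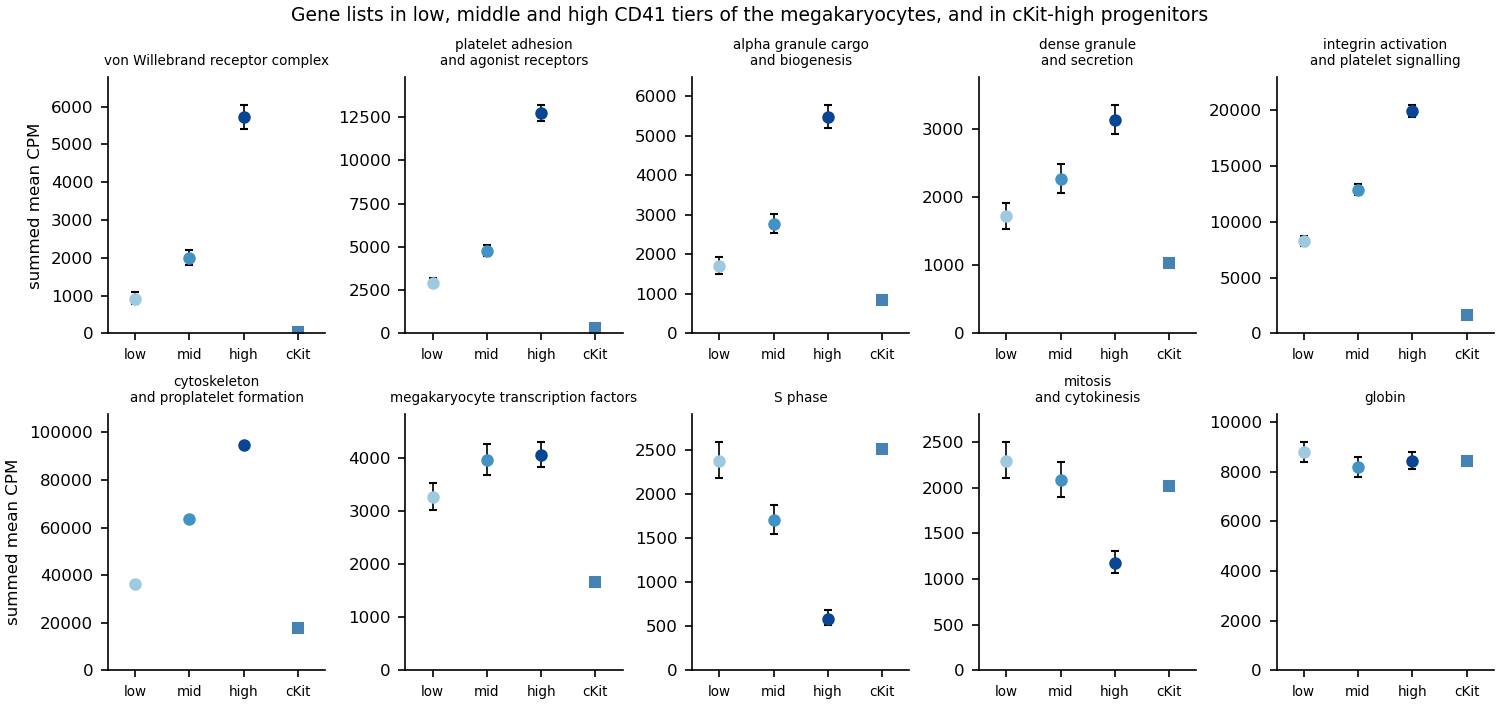
Summed mean CPM of 10 gene lists in the lowest (low), middle (mid) and highest (high) tier of CD41 count, 31 cells each, and in cKit-high progenitors (cKit), with 95% counting intervals and axes from 0. The 6 platelet lists of receptors, granules, signalling and cytoskeleton ascend across the tiers, the S phase list descends from 2375 to 585 CPM, and globin stays between 8183 and 8792 CPM.

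Genes of DNA replication showed the opposite order. The S phase list summed to 2375 CPM in the lowest tier, 1699 CPM (1544 to 1877) in the middle and 585 CPM (508 to 681) in the highest, and the cKit-high progenitors had 2505 CPM. All 7 S phase genes that could be compared were lower in the highest tier, beside 12.9% of all compared genes. Their median log2 difference was −1.85, while 13 of the 20 listed held too few UMIs. Genes such as *Mcm6* (49 UMIs in the lowest and 16 in the highest tier) met the minimum mainly through the lowest tier. The count of 7 is thus partly set by the filter, and the sum over all 20 is not. *Mcm6*, a subunit of the replicative helicase, had 190, 171 and 33.6 CPM, and *Tyms*, whose enzyme makes thymidylate, 179, 156 and 34.5 CPM. The 12 genes with the largest differences towards the lowest tier were *Marcksl1*, *Stmn1*, *Syce2*, *Gmnn*, *Asf1b*, *Tipin*, *Hmgb3*, *Mcm6*, *Nsun2*, *Tk1*, *Apoe* and *Tyms*. *Stmn1*, a microtubule-destabilizing protein gene, had 842 CPM in the lowest tier and a ratio of highest to lowest of 0.171 (0.124 to 0.234), and *Gmnn*, an inhibitor of origin licensing, 247 and 41 CPM. With 2 tiers in place of 3 the ratios were nearer to 1, 0.439 in place of 0.177 for *Mcm6*, 0.315 in place of 0.166 for *Gmnn* and 0.268 in place of 0.171 for *Stmn1*. *Apoe* had 656 and 140 CPM, with 38.0% of the lowest tier's UMIs in 1 cell.

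Mitotic genes differed less. Their list summed to 2290, 2079 and 1179 CPM, and the median over cells of the highest tier was 320 CPM with quartiles of 140 and 2124 CPM. Of 7 comparable genes 4 were lower in the highest tier, beside 12.9% of all compared genes, with a median log2 difference of −1.32. *Birc5* had 496, 389 and 193 CPM, while *Plk1* had 39.0, 46.7 and 56.6 CPM. The list of cyclins, their kinases and cell cycle inhibitors summed to 2486, 2432 and 2419 CPM. Of its 8 comparable genes 3 were lower in the highest tier (*Ccna2*, *Cdk1* and *Cdk4*) and 1 was higher, beside 12.9% and 14.2% of all compared genes. Over the cKit-high progenitors 2 of 17 were higher and 3 lower, *Ccne1*, *Cdk4* and *Cdk6*. The higher gene between tiers was *Cdkn2d*, which encodes the inhibitor p19INK4d and was the most counted of the list over all members, at 239, 571 and 963 CPM, and stood at 591 CPM over all members against 51.2 CPM in the progenitors (ratio 11.5, 10.0 to 13.3). *Ccnd3*, the cyclin D3 gene, had 487 against 183 CPM, and *Cdk6*, its kinase partner, 63.1 against 339 CPM. *Ect2*, a gene of cytokinesis, stood at 3.67 against 27.4 CPM and was the 1 lower gene among the 22 of the mitotic list, in which *Rhob*, a small GTPase gene, was the 1 higher gene at 30 against 9.65 CPM. Over all genes of this comparison 5.18% were lower and 7.00% higher, and both mitotic counts are near these shares.

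Of 14 comparable transcription factors 3 were higher (*Gata1*, *Lyl1* and *Mafg*) and none lower in the highest tier, beside 14.2% and 12.9% of all compared genes. Their median log2 difference was 0.39, against −0.21 for all genes. *Gata1* had 187, 262 and 392 CPM (ratio 2.09, 1.44 to 3.10), but its ratio was 1.67 on the relative scale of CD41, 1.42 with 2 tiers and 1.96 without called doublets, all under 2-fold. *Fli1* had 357, 456 and 537 CPM. *Gata2* had 140, 50.2 and 68.1 CPM, a ratio of 0.486 (0.256 to 0.898) and within 2-fold on the scale with 10 CPM added. *Gata2* rested on 35 UMIs in the lowest and 21 in the highest tier.

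Antibodies other than CD41 also varied across the tiers. The cKit median was 236, 111 and 77 counts, that of CD71 63, 126 and 201, that of CD44 306, 339 and 489, and that of Ter119 7, 8 and 19. CD45R, the B cell antigen, had medians of 12, 16 and 31 and CD3e, the T cell antigen, 8, 9 and 18, although *Cd3e* transcripts were listed at 0. Across the 93 members the rank correlation with CD41 was 0.66 for CD45R, 0.57 for Ter119, 0.52 for CD3e and −0.42 for cKit, and it was 0.27 for UMIs. With the summed S phase level it was −0.66 for CD41 and 0.58 for cKit. These correlations are descriptions over cells that share 1 library and differ in depth. The other antibodies thus moved with CD41, cKit excepted, and their part in the order of the cells was not tested. Ribosomal protein transcripts took a median of 18.9%, 15.3% and 12.5% of UMIs, and mitochondrial transcripts 4.6%, 4.92% and 4.83%.

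A CD41 count at the limit of 96 did not by itself mark these cells. Of 215 kept cells with a CD41 count of 96 or more, 93 (43.3%, exact binomial 95% interval 36.5 to 50.2%) met the gene rule, while 88 had no gene of the rule at 2 UMIs, 26 had 1 and 8 had 2. The 122 that failed the rule had a CD41 median of 156 and a highest count of 1740, while the members, for which CD41 was part of the choice, had a median of 1639 and 44 counts above 1740. The cells that failed had a CD41 count relative to the CD11b, Ly6G/6C, CD45R and CD3e antibodies of 0.715 at the median, against 33.6 in the members. Their transcripts included *Plac8* at 726 CPM and *Mpo* at 499 CPM, where the members had 10.6 and 16.3 CPM, and *Cpa3*, a mast cell protease gene, at 187 CPM, where the members had none. *Lyve1* and *Dcn*, of endothelium and stroma, stood at 294 and 295 CPM. Each of these 5 transcripts was held by a minority of the 122 cells, *Plac8* by 45, *Lyve1* by 37, *Mpo* by 33, *Dcn* by 21 and *Cpa3* by 17. The cells with 2 rule genes had CD41 counts of 121 to 1391 with a median of 420.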

How the data were processed

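cDNA reads were aligned by the authors to mm10 with Cell Ranger, and raw UMI counts of genes in cells were deposited. Antibody counts, deposited likewise, are unnormalized. Whether they were collapsed to molecules is not given in the sources used here, and 1.05% of antibody reads matched no antibody. Reads come from transcript 3′ ends, so counts of different genes are not on a common scale.

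The study's limits were applied (300 to 5000 genes, mitochondrial UMIs up to 9%). Doublets were called by the Scrublet method in scanpy 1.11.5 at an expected rate of 6% and were kept. Levels were means of CPM over cells with 95% gamma intervals for weighted counts, and ratios used binomial intervals on effective counts. The ratio intervals were tested on simulated Poisson counts, in which cells of a group did not differ beyond depth and counting error. The intervals of the levels were not tested so. The total was 58606632 UMIs in 7863 cells, between 2510 and 38047 per cell. Members and gene lists were chosen with earlier results of these data known. Named genes were the rule genes, the targets of the antibodies, up to 8 members of each list with the highest means, members past 2-fold, the top 12 of each comparison in each direction, and the 10 most abundant. Genes outside this rule, among them those at 0, were named after their values were seen. Some genes that it names are not reported here. The planned comparison with CD41-low cells had 2 cells and was not made. The comparison of CD41 tiers was added. The random seed of thinning and doublet calls was changed once after their values had been seen, and 20 further draws were then added. Python 3.11.15, numpy 2.4.6, scipy 1.17.1 and pandas 2.3.3 were used. Positions and promoters came from RefSeq (GRCm38.p6).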

Additional observations from a re-analysis of the deposited data

Results flagged for a closer look

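Outside the quality limits, 10 further cells met both the gene rule and the CD41 limit, and they enter none of the values above. Of these, 2 had more than 5000 genes, with 33355 and 35550 UMIs and CD41 counts of 7789 and 18347, among only 5 cells of that size in the whole matrix. The other 8 had between 10.0% and 40.5% mitochondrial UMIs. The CD41 counts of the 10 ran from 179 to 21568 with a median of 8194, against a median of 1639 in the 93 kept cells.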

How the results depend on the processing

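The number of members lay between 76 (4 of the 6 genes required) and 103 (no quality limits). Of 70 ratios of named genes, 68 stayed on one side of 1 in each setting tried, *Nfe2* between the CD41 tiers being an exception (down to 1.0 when thinned), and 42 moved by over 1.5 times in at least one setting. Thinned, *Alox12* and *Gp1ba* over cKit-high progenitors gave no finite ratio, and neither did *Myl9* between tiers without cells of Ter119 at 25 or more, as one group then had no UMI. With an added constant of 1 CPM, genes past 2-fold numbered 2227 over cKit-high progenitors (956 higher, 1271 lower) and 3703 over the cells failing the rule (2203 higher, 1500 lower), as low genes then pass. Thinned, the first comparison gave 416 higher and 681 lower and the second 1095 and 612. Against the cells failing the rule, the split was 668 and 462 without cells of Ter119 at 25 or more. For the tiers, the main 595 genes became 133 when thinned, 1165 with a minimum of 20 UMIs, 2241 with none and 392 with 2 tiers in place of 3.

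Thinned values depend on the random draw. Over 20 further draws, chosen after the data had been seen, the tier count ran from 122 to 155 and *Gata2* over cKit-high progenitors from 0.489 to 1.70, below 1 in 2 draws. A first draw, replaced when the seed was changed, had also put *Gata2* below 1. *Nfe2* between tiers was below 1 in 1 draw. The settings for the CD41-low comparison were not run, since it had 2 cells. No paired analysis was possible because the result comes from no test. With 1 library, counting error is the only error that can be given.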
